A study of Mus musculus with 12 samples.

Results

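Slc1a2, Aqp4, Sox9 and Gfap are 4 genes widely used to mark astrocytes, and their m6A peaks were examined in mouse hippocampus at 6 and 2 weeks of age. Peaks were taken from the 4 deposited lists wherever they overlapped fixed windows on mouse build mm9. The windows were chr2:102498500-102631500 for Slc1a2, chr18:15545000-15575000 for Aqp4, chr11:112643200-112649500 for Sox9 and chr11:102748300-102762600 for Gfap. They held 51 of the 148097 peaks in the lists. Peaks of any list that shared at least 1 bp were merged into regions, of which the windows held 22 of 70674.

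The tissue came from male wild-type C57BL/6 mice, with 2 libraries at 6 weeks and 2 at 2 weeks, and no treatment or transgene is given for either age. Poly(A)+ RNA was fragmented and pulled down with an antibody against m6A (the IP). A peak is a stretch of 100 bp where the IP had more sequence tags than its control, which is the fragmented RNA before pull-down (the input). The labels describe 12 samples, and the other 8 were not analysed here. The tissue was taken whole, so the number of astrocytes and the RNA per astrocyte cannot be told apart in any level given here.

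N6-methyladenosine (m6A) is a methyl mark placed on adenosines of messenger RNA by a methyltransferase complex and removed by demethylases such as FTO. It is most common near stop codons, and proteins that read it can alter the splicing, translation and decay of the transcript. Astrocytes clear glutamate from synapses, move water and ions at blood vessels and mature in the first weeks after birth in mice. Slc1a2 encodes their main glutamate transporter, Aqp4 the water channel of their endfeet, Sox9 a transcription factor of astrocytes and neural progenitors, and Gfap an intermediate filament protein.

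Sequencing depth (M, mega) was 16.1 and 16.5 M tags for IP at 6 weeks, against 23.4 and 23.0 M at 2 weeks. Their controls held 15.8 and 11.7 M tags at 6 weeks, against 29.3 and 16.8 M at 2 weeks. The lists were shorter at 6 weeks, with 33239 and 36494 peaks, than at 2 weeks, with 39259 and 39105. Peaks took 22.2% and 16.0% of IP tags at 6 weeks, against 21.7% and 24.4% at 2 weeks, so 6-week replicate 2 had the lowest share. Depth and age cannot be told apart in these lists, and all levels below are tags per 10 M tags sequenced from their own library.

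Slc1a2, Aqp4 and Sox9 each had at least 1 region called in all 4 lists, and Gfap had none. The lists of 6-week replicates 1 and 2 held 10 and 17 peaks in the 4 windows, against 14 and 10 in 2-week replicates 1 and 2. Slc1a2 had 21 peaks in 10 regions, Aqp4 19 in 8, Sox9 10 in 3 and Gfap 1 in 1. Of the 22 regions, 5 were called in all 4 lists (22.7%, against 14.4% of all regions) and 13 in a single list (59.1%, against 58.6%). No region was called in both libraries of 6 weeks and neither of 2 weeks, a pattern held by 1.92% of all regions. None was called in both libraries of 2 weeks and neither of 6 weeks, a pattern held by 6.41%. The 13 regions of a single list came from 6-week replicate 1 in 3 cases, 6-week replicate 2 in 6 and 2-week replicate 1 in 4.

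**Figure D1:**
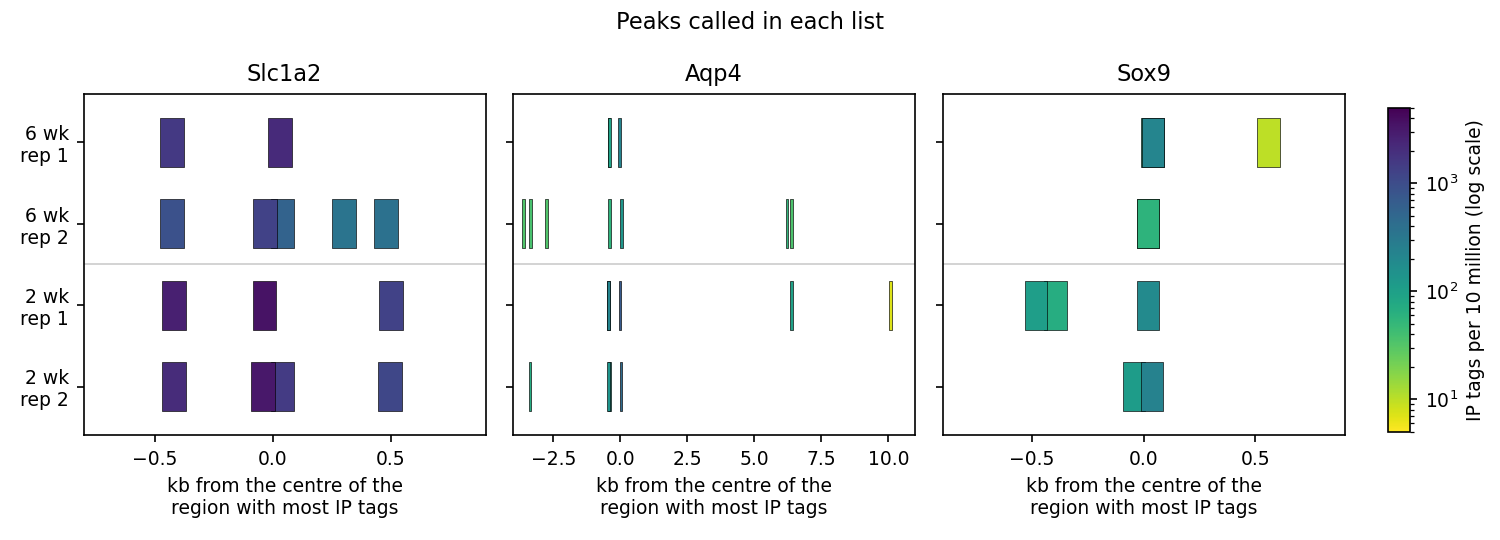
Peaks of Slc1a2, Aqp4 and Sox9 in each list, 6-week libraries above 2-week libraries. The horizontal axis gives kb from the centre of the region with most IP tags, and colour gives IP tags per 10 M on a log scale. The panel of Slc1a2 shows the 4 regions at the end of its window, and the 2 regions called in every list recur in each of the 4 tracks.

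Slc1a2 carried the strongest signal of the 4 genes. Of its 10 regions, 4 lay within 1027 bp of each other, at chr2:102629684-102630711, less than 2 kb before the end of the window. Slc1a2 lies on the plus strand in RefSeq's annotation, so these regions were at the downstream end of the window. Their IP levels ranged from 346.5 to 3609.0 tags per 10 M. The other 6 regions were spread over the rest of the window, had IP levels of 2.99 to 17.4 tags per 10 M, and 5 of them came from a single list.

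The first Slc1a2 region, chr2:102629684-102629794, held 1 peak in every list, with starts within 10 bp. Its IP levels were 1593.7 and 892.8 tags per 10 M at 6 weeks, against 2739.8 and 2121.9 at 2 weeks. These values placed it 87th and 72nd by IP level in the 6-week lists, and 22nd and 48th in the 2-week lists. Its control levels were 236 and 103 tags per 10 M at 6 weeks, against 323 and 321 at 2 weeks. Both 6-week libraries were below both 2-week libraries in both fractions, and 6-week replicate 2 was the lowest. IP averaged 1243 ± 496 tags per 10 M in 6-week and 2431 ± 437 in 2-week libraries (SD, n = 2 each), a ratio of 0.511. The control averaged 169 ± 93.6 in 6-week and 322 ± 1.16 in 2-week libraries (SD, n = 2 each), a ratio of 0.526. The fold of IP over control in the authors' deposited table was 6.76 and 8.64 at 6 weeks, against 8.48 and 6.60 at 2 weeks. The ages overlapped in fold, with the highest and second-highest values from different ages.

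The second Slc1a2 region, chr2:102630070-102630251, had the most IP tags of all 22 regions. The strongest peak of each list held 2221.8 and 1280.5 IP tags per 10 M at 6 weeks, against 3609.0 and 3175.0 at 2 weeks. Control levels were 375 and 275 tags per 10 M at 6 weeks, against 920 and 1021 at 2 weeks, a ratio of 0.335 between the means. Both fractions were lower in both 6-week libraries. The deposited fold of the strongest peaks ran the other way, at 5.92 and 4.66 at 6 weeks, against 3.92 and 3.11 at 2 weeks.

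These strongest peaks were not all at the same place. The peak of 6-week replicate 1 started at 102630140, whereas those of the other 3 lists started between 102630070 and 102630078. At the left-hand place, 6-week replicate 2 held 1280.5 IP and 275 control tags per 10 M, against the 2-week values above. At the right-hand place, IP levels were 2221.8 and 571.8 tags per 10 M in 6-week replicates 1 and 2, against 1512.6 in 2-week replicate 2. Control levels there were 375 and 125 at 6 weeks, against 322 in 2-week replicate 2, and deposited folds 5.92 and 4.59, against 4.70. The single 2-week value thus lay between the 6-week values on the right in level and in fold. On the left the single 6-week value lay below both 2-week values in level and above both in fold.

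Another Slc1a2 region, chr2:102630588-102630711, was called in 3 lists. Its IP level was 375.5 tags per 10 M in 6-week replicate 2, against 1290.3 and 1136.7 in the 2-week libraries. Its control level was 62.3 in 6-week replicate 2, against 338 and 273, and its deposited fold 6.02, against 3.82 and 4.16. Between it and the second region, chr2:102630412-102630512 was called in 6-week replicate 2 only, with 346.5 IP and 108 control tags per 10 M and a fold of 3.22, close to the lowest fold in the lists, 3.

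The highest fold in the Slc1a2 window belonged to a peak with few tags. At chr2:102604955-102605055, 6-week replicate 1 had a deposited fold of 45.03 from 23 IP tags and 0 control tags. The control count of 0 allows up to 3 tags, so this fold is poorly bounded. The other 5 weak regions had deposited folds from 3.31 to 22.51 and at most 14 control tags.

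Aqp4 had 8 regions, and the 2 called in every list lay within 573 bp. Its second region, chr18:15551952-15552113, was the stronger and held 1 peak in each list. IP levels there were 225.1 and 133.9 tags per 10 M at 6 weeks, against 729.2 and 456.0 at 2 weeks. Control levels were 29.8 and 25.6 at 6 weeks, against 102 and 54.7 at 2 weeks. Both 6-week libraries were below both 2-week libraries in both fractions. IP averaged 179.5 ± 64.5 in 6-week and 593 ± 193 in 2-week libraries (SD, n = 2 each), a ratio of 0.303, the lowest IP ratio of the 5 regions called in every list. The control averaged 27.7 ± 2.94 in 6-week and 78.2 ± 33.2 in 2-week libraries (SD, n = 2 each), a ratio of 0.354. The deposited fold was 7.56 and 5.23 at 6 weeks, against 7.17 and 8.34 at 2 weeks, and the ages overlapped.

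The starts of these 4 peaks spread over 61 bp, but each 6-week peak had a close 2-week neighbour. The peak of 6-week replicate 2 started 2 bp from that of 2-week replicate 2, and its IP level was 0.294 times and its control level 0.469 times as high. The peak of 6-week replicate 1 started 20 bp from that of 2-week replicate 1, with an IP ratio of 0.309 and a control ratio of 0.293. The lower levels at 6 weeks were therefore also present between peaks at nearly the same position.

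The first Aqp4 region, chr18:15551540-15551684, was weaker. Its IP levels were 93.6 and 57.5 tags per 10 M at 6 weeks, against 223.2 and 139.4 at 2 weeks. Its control levels were 15.2 and 10.2 at 6 weeks, against 43.0 and 27.3 at 2 weeks, from 24 and 12 tags at 6 weeks and 126 and 46 at 2 weeks. Both fractions were again lower in both 6-week libraries. The deposited fold of these strongest peaks was 6.16 and 5.62 at 6 weeks, against 5.19 and 5.10 at 2 weeks. Other peaks of the region did not keep that order, with a fold of 3.52 in 6-week replicate 1, against 5.85 and 4.38 in 2-week replicates 1 and 2.

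Within a library, the ratio of the 2 Aqp4 regions does not depend on depth. The second region had 2.40 and 2.33 times the IP tags of the first at 6 weeks, against 3.27 and 3.27 times at 2 weeks. The same ratio of control tags was 1.96 and 2.50 at 6 weeks, against 2.37 and 2.00 at 2 weeks. With the strongest peaks, the IP ratios of the ages did not overlap and the control ratios did. The separation turned with the peak that stands for the first region: against the other peak of 6-week replicate 1 there, at 15551564 with 55.8 IP tags per 10 M, the IP ratio was 4.03, above both 2-week values. An exact permutation test of 2 against 2 libraries cannot give a two-sided p under 0.333, and no other test was run on these ratios. In Slc1a2 the second region had IP ratios to the first of 1.39 and 1.43 at 6 weeks, against 1.32 and 1.50 at 2 weeks. Its control ratios were 1.59 and 2.66 at 6 weeks, against 2.85 and 3.18 at 2 weeks, and the lowest came from 6-week replicate 1, whose peak lay to the right.

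The remaining 6 Aqp4 regions had IP levels from 7.25 to 96.9 tags per 10 M, and 4 were called in a single list. Of those 4, chr18:15558200-15558300 was called in 6-week replicate 2, with 55.1 IP and 17.1 control tags per 10 M and a fold of 3.23. The region chr18:15558376-15558476 was called at the same interval in both ages, with 35.7 IP and 8.54 control tags per 10 M in 6-week replicate 2, against 96.9 and 25.2 in 2-week replicate 1. The region chr18:15548610-15548722 held 36.9 IP and 6.83 control tags per 10 M in 6-week replicate 2, against 71.4 and 22.0 in 2-week replicate 2. Each of these 2 regions had its lower levels at 6 weeks and its higher deposited fold there, at 4.19 against 3.84 and at 5.41 against 3.25.

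The shared region of Sox9 had a weaker control signal than the shared regions of Slc1a2 and Aqp4, and a strong enrichment. This Sox9 region, chr11:112646980-112647165, had deposited folds of 24.33 and 22.23 at 6 weeks, against 17.16 and 21.45 at 2 weeks. In each list this was the highest fold among the strongest peaks of the 5 regions called in every list, and both 6-week values were above both 2-week values. Over every peak of the region the folds overlapped, at 11.35 to 24.33 at 6 weeks, against 8.56 to 21.45 at 2 weeks. IP levels were 215.8 and 56.9 tags per 10 M at 6 weeks, against 187.3 and 242.2 at 2 weeks. The ages overlapped, and 6-week replicate 2 stood below the other 3 libraries. IP averaged 136 ± 112 in 6-week and 215 ± 38.8 in 2-week libraries (SD, n = 2 each). Control levels were 8.87 and 2.56 at 6 weeks, against 10.9 and 11.3 at 2 weeks. These rested on 14 and 3 control tags at 6 weeks and on 32 and 19 at 2 weeks, so the folds carry a large counting error.

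Tag numbers at Sox9 also differed between peaks at nearly the same start. In 6-week replicate 1, peaks starting at 112647061 and 112647065 held 65.1 and 215.8 IP tags per 10 M. In 6-week replicate 2, a pair of peaks with the printed start 112647041 held 56.9 and 29.1. Peaks with the same printed 100 bp thus did not hold the same tags. How tags were assigned to them was not checked, and the strand of peaks was not read. The largest peak of each list was used for each region. The other 2 Sox9 regions came from single lists. In 2-week replicate 1, chr11:112646541-112646728 had 105.8 IP and 32.1 control tags per 10 M and a fold of 3.30. That control level was above the 10.9 of the shared Sox9 region in the same library. In 6-week replicate 1, chr11:112647581-112647681 had 9.92 IP and 2.53 control tags per 10 M and a fold of 3.92.

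Gfap had 1 peak in the 4 lists, in 6-week replicate 2. At chr11:102748611-102748711 it held 24 IP tags, or 14.5 per 10 M, and 4 control tags, with a deposited fold of 4.26. Gfap lies on the minus strand in RefSeq's annotation, and the peak was 311 bp from the downstream end of the window. A list gives tags only where a peak was called, so the level of Gfap RNA in the other 3 libraries is not known from these data, and the lack of a peak does not show that the transcript was unmethylated.

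**Figure D2:**
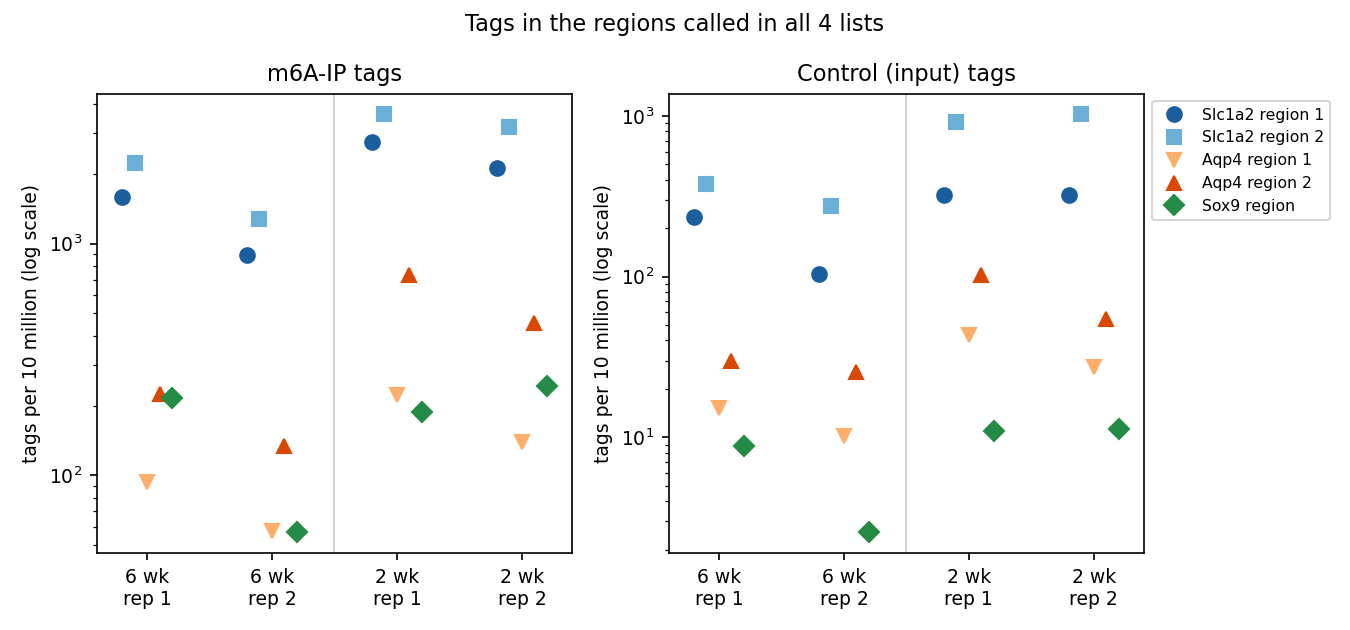
IP tags (left) and control tags (right) per 10 M, on log scales, in the 5 regions called in all 4 lists, for each 6-week and then each 2-week library; points are the strongest peak of each list. Slc1a2 region 2 had the highest control level and Sox9 the lowest in every library, and the 6-week points were lower except for Sox9 IP.

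The order of the control levels was the same in all 4 libraries. Slc1a2 region 2 was highest, followed by Slc1a2 region 1, Aqp4 region 2, Aqp4 region 1 and Sox9. Within each age, neighbours in this order did not overlap between libraries. All printed peaks were 100 bp wide, so levels compare equal printed lengths, although how tags were counted over them was not checked. The order of IP levels differed in its lower part, with Sox9 above Aqp4 region 1 in 6-week replicate 1 and 2-week replicate 2 and below it in the other 2 libraries. For scale, the median region called in all 4 lists had 55.2 and 36.3 IP tags per 10 M at 6 weeks, against 59.7 and 65.8 at 2 weeks. Its control level was 6.97 and 5.98 at 6 weeks, against 9.55 and 10.1 at 2 weeks. Sox9 in 6-week replicates 1 and 2 was thus at 8.87 and 2.56 control tags per 10 M, above and below those medians. At 2 weeks its 10.9 and 11.3 control tags per 10 M were above the medians of both libraries.

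By the strongest peak of each list, 4 of the 5 shared regions had both 6-week IP levels below both 2-week IP levels, the exception being Sox9. That order held for 41.6% of all regions called in all 4 lists. All 5 had both 6-week control levels below both 2-week control levels, an order found in 46.6% of all such regions. The deposited fold was higher in both 6-week lists at 3 of the 5, namely Slc1a2 region 2, Aqp4 region 1 and Sox9, against 19.3% of all such regions. With every peak of each list in place of the strongest, a comparison added after seeing the data, 3 of the 5 regions kept separate IP levels and 4 separate control levels, the region lost in both being Slc1a2 region 2. The separation in fold was then left at 0 of the 5. Over all peaks of the 4 genes, 23 pairs of a 6-week and a 2-week peak started within 20 bp of each other. IP and control levels were each lower in the 6-week peak in 22 of them, and the exception in both was the Slc1a2 peak of 6-week replicate 1 that started at 102630140. The deposited fold was higher in the 6-week peak in 16 of the 23 pairs. These pairs share peaks and libraries and are a description only. The matching shares over all peaks of the lists were not counted, neither for these pairs nor for the comparison with every peak of each list. The median region called in all 4 lists also had lower IP and control levels in both 6-week libraries. The 5 regions come from Slc1a2, Aqp4 and Sox9 only, so regions of the same gene are not independent.

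**Figure D3:**
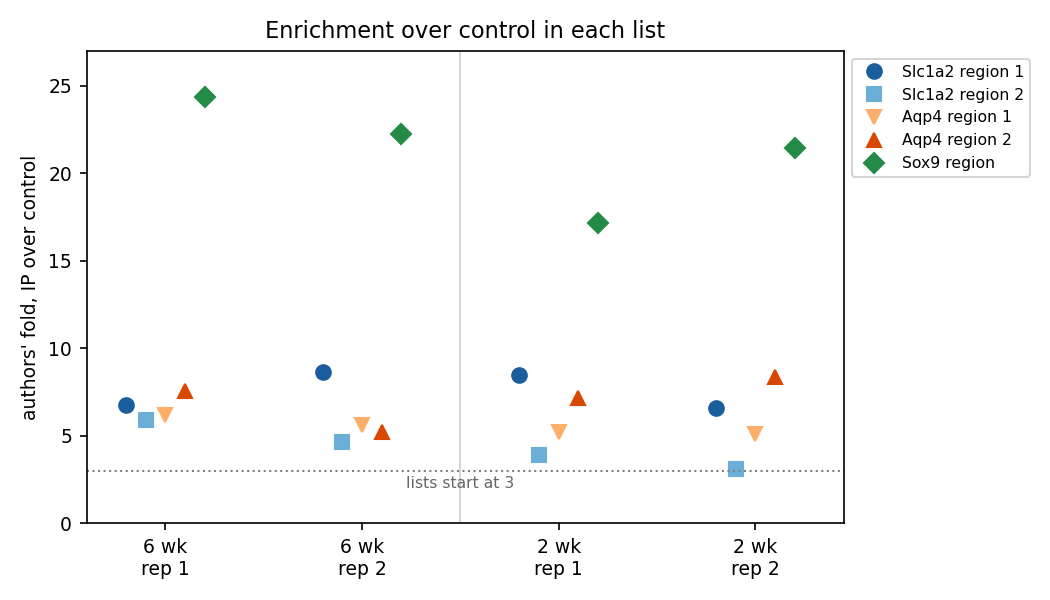
Fold of IP over control in the authors' deposited lists, on a linear axis from 0, for the 5 shared regions in each 6-week and then each 2-week library; the dotted line marks the lowest fold in the lists, 3. Sox9 stood at 17.16 to 24.33 and the other 4 regions between 3.11 and 8.64.

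Changes with age were tested with edgeR's quasi-likelihood fit over whole tags, with Benjamini-Hochberg adjustment over all regions tested. The libraries were scaled by trimmed mean of M-values (TMM), which sets the typical region near no change. The log2 changes below are therefore smaller than the ratios per 10 M given above. Under scaling to total tags instead, the median region had a log2 change of -0.53 in control tags and -0.37 in IP tags, 6 over 2 weeks. Regions with exactly 1 peak in each list numbered 4577, and 2 of them were astrocyte regions, the first of Slc1a2 and the second of Aqp4.

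Neither of these 2 regions passed an adjusted p of 0.05 in control tags, where 2.18% of all regions passed, or in IP tags, where 1.09% passed. Slc1a2 region 1 had a log2 change of -0.42 ± 0.32 in control tags (SE, adjusted p = 0.569, edgeR) and -0.61 ± 0.47 in IP tags (adjusted p = 0.547, edgeR). Aqp4 region 2 had a log2 change of -1.01 ± 0.37 in control tags (adjusted p = 0.140, edgeR) and -1.36 ± 0.40 in IP tags (adjusted p = 0.0964, edgeR). The IP change of Aqp4 region 2 was at the 1.46 percentile of all 4577 regions, counted from the lowest. It passed when a 6-week library was left out, with adjusted p = 0.0125 without replicate 1 and 0.00921 without replicate 2. Leaving out a 2-week library gave an IP change of -0.89 (adjusted p = 0.850) without replicate 1 and -1.72 (adjusted p = 0.299) without replicate 2, in edgeR's fit. The control change of Aqp4 region 2 was -0.36 (adjusted p = 0.889) without 2-week replicate 1 and -1.44 (adjusted p = 0.50) without 2-week replicate 2, in the same fit. For Slc1a2 region 1, leaving out a 6-week library moved the control change to -1.01 (replicate 1 left out) or -0.00 (replicate 2 left out). With total tags in place of TMM, Aqp4 region 2 passed in control tags at -1.50 (adjusted p = 0.00882, edgeR), and Slc1a2 region 1 did not at -0.92 (adjusted p = 0.0901, edgeR). With that scaling 391 of all 4577 regions passed in control tags, 370 of them as lower at 6 weeks.

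The enrichment, the IP level relative to control, was tested as the interaction of fraction and age. Its log2 change was -0.08 ± 0.38 for Slc1a2 region 1 and -0.39 ± 0.42 for Aqp4 region 2 (SE, adjusted p = 0.999 for both, edgeR). No region passed, 0% of 4577, with 127 at an unadjusted p under 0.05 in edgeR, and 28 in DESeq2 and 140 in limma, which also passed no region after adjustment.

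The other 3 shared regions have several peaks in some list and were fitted with all 10203 regions called in all 4 lists, with the strongest peak of each list. In this fit 0.696% of regions passed in control tags, 0% in IP tags and 0% in enrichment, and none of the 5 astrocyte regions passed. Without single libraries, 24 to 213 regions passed in control tags, 7 to 1643 in IP tags and 0 to 9 in enrichment. At an unadjusted p under 0.05, edgeR had 1672 regions in IP tags and 308 in enrichment. Slc1a2 region 2 had a log2 change of -1.05 ± 0.32 in control tags (SE, adjusted p = 0.0985, edgeR), -0.59 ± 0.49 in IP tags and 0.49 ± 0.38 in enrichment. Aqp4 region 1 had -0.96 ± 0.43 in control tags (adjusted p = 0.314, edgeR), -0.90 ± 0.38 in IP tags and 0.07 ± 0.47 in enrichment. Without 2-week replicate 1 these control and IP changes were -0.51 and -0.41. Sox9 had -0.38 ± 0.55 in control tags (adjusted p = 0.822, edgeR), -0.38 ± 0.42 in IP tags and 0.11 ± 0.56 in enrichment. Without 6-week replicate 2 the Sox9 changes turned to 0.12 in control tags and 0.10 in IP tags.

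The 5 regions had a median log2 change of -0.96 in control tags, against -0.04 over all 10203 regions. The median was -0.61 in IP tags, against 0.03, and 0.07 in enrichment, against 0.04. All 5 changes were negative in control and in IP tags, and 2 of 5 in enrichment. The exact share of negative changes over all 10203 regions was not counted, but their medians above lie close to no change. By the sign of these medians, negative changes outnumbered positive ones in control tags and were outnumbered in IP tags and enrichment. The bins of 0.2 just below and just above 0 held 1039 and 1072 regions in control tags. These bins held 1299 and 1277 regions in IP tags, and 1473 and 1484 in enrichment. Slc1a2 and Aqp4 each gave 2 of the 5 regions, and all share the same libraries, so the 5 are not independent. Scaled to total tags, 3 of the 5 passed as lower at 6 weeks in control tags, against 5.84% of all regions. They were Slc1a2 region 2 at -1.58 (adjusted p = 0.00654), Aqp4 region 2 at -1.50 (adjusted p = 0.0122) and Aqp4 region 1 at -1.46 (adjusted p = 0.0323), all by edgeR. Fitting all 10203 regions this way was chosen after seeing the data, and the part of library depth and composition in it was not tested.

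**Figure D4:**
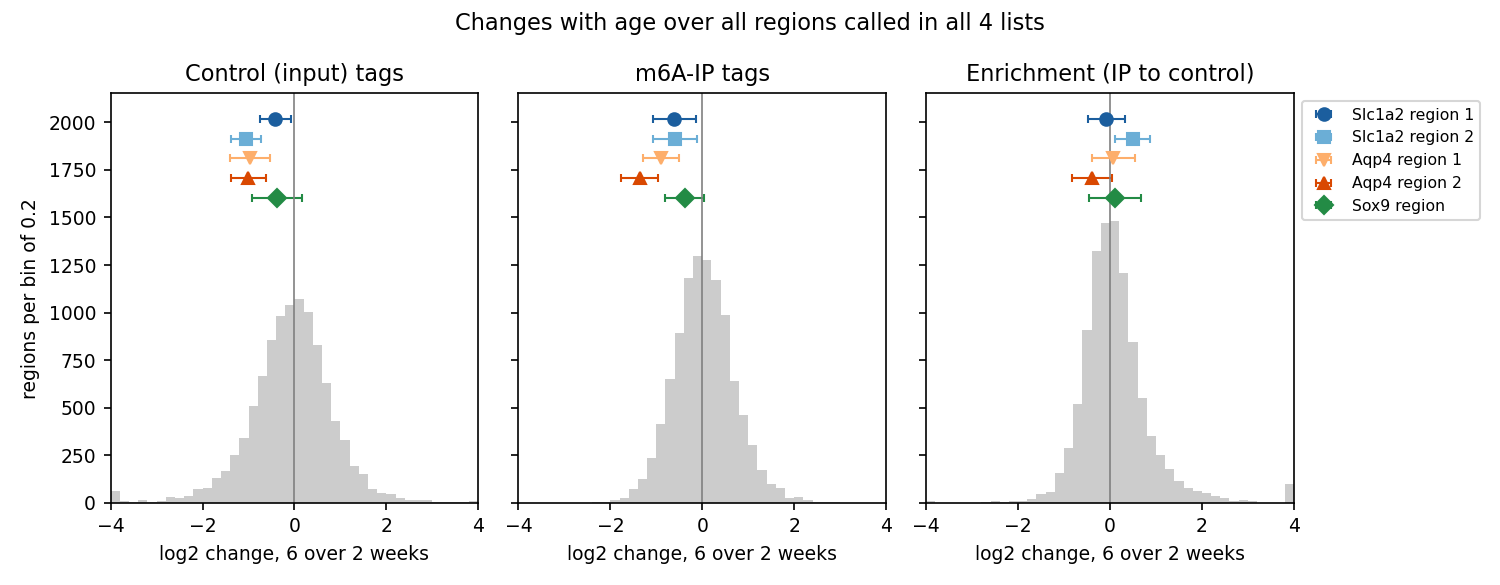
Log2 change, 6 over 2 weeks, in control tags, IP tags and enrichment. Grey bars count all 10203 regions called in all 4 lists per bin of 0.2, with changes beyond 4 in either direction in the end bins; points and bars are the estimates and SE of the 5 astrocyte regions, whose height on the axis has no meaning. The points lie left of 0 in control and IP tags and on both sides of 0 in enrichment.

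The control patterns of Slc1a2 region 1 and Aqp4 region 2 over the 4 libraries were set beside those of 1947 regions with 1 peak per list and at least 10 control tags in each library. Likeness was the root mean square difference of log2 control levels, each centred on its own mean. Slc1a2 region 1 was nearest to chr2:165102321-165102431, with a difference of 0.0763, and to chr6:90610482-90610610, with 0.0921. Aqp4 region 2 was nearest to chr6:22951305-22951412, with a difference of 0.0683, and to chr6:85164460-85164578, with 0.120. The nearest region to Slc1a2 had control levels of 21.5 and 8.54 tags per 10 M at 6 weeks, against 25.9 and 26.7 at 2 weeks. The nearest to Aqp4 had 16.5 and 14.5 at 6 weeks, against 53.6 and 32.7 at 2 weeks. With 4 libraries, such likeness is a description, and these regions were not assigned to genes.

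A genome and gene annotation of mm9 were not used here, so no peak is placed in an exon, intron or UTR and no peak sequence is shown. The hippocampal label was for the same reason not checked against marker genes beyond the 4. In RefSeq's GRCm38.p6 annotation, Slc1a2 overlaps LOC115489466 and Gm13872, Aqp4 overlaps A830021F12Rik, and Gfap and Sox9 overlap no other gene. The library kit named in the labels does not keep strand, so tags of overlapping genes cannot be told apart.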

How the data were processed

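The members and lists were chosen with earlier results of these data known. The submitters' processing notes name build mm9, HOMER (version not given in the sources used here), Cufflinks 2.2.1, TopHat2 2.1.1 and 2.0.13, and Bowtie2 2.2.3, without their roles. Per the file headers, the peak lists are HOMER output, 1 per IP library, so replicates were not pooled. The deposited normalized tag signal is scaled to 10000000 tags per library. The authors' tag columns are whole counts in 1 fraction and, in the other, estimated counts scaled to its depth. The deposited fold ratio (at least 3), p-value against control (at most 8.32e-05) and score served to describe and rank peaks. A fraction per peak (the focus ratio) was deposited too and left aside.

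Scaled columns were divided by the value of 1 tag, which gave whole tags within 0.2 for 100.0% of peaks, and a control of 0.5 was read as 0. Tags were fitted with edgeR 4.0.16 (TMM, quasi-likelihood, an offset for peak width, threshold 0.05), with DESeq2 1.42.0, limma 3.58.1 (pseudocount 1), other scalings, filters and left-out libraries as alternatives. The limma fit used log2 levels scaled to total tags, not by TMM. R 4.3.3, Python 3.11.15, pandas 2.3.3, numpy 2.4.6 and matplotlib 3.10.9 were used, and the fits were tested on simulated tags. Named regions were those with 1 peak in each list, those called at 1 age only, the 3 with most IP tags in a window and the one with the highest fold. The Aqp4 region chr18:15548610-15548722 was described outside this rule. The bound given for a control count of 0 covers counting error only. SEs of the edgeR fits also include the estimated spread between libraries. The labels number biological replicates without naming animals, so p-values measure the spread between these samples, which may be technical. The spread between replicates exceeded counting noise: chi-square over degrees of freedom was 22.0 at 6 weeks and 16.7 at 2 weeks in IP tags, so none was counted as a repeat deposit.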

Additional observations from a re-analysis of the deposited data

How the results depend on the processing

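Of 114 alternative values of single astrocyte regions, 100 kept their direction and side of the threshold, 6 newly passed it and 8 turned direction. The regions passing in control tags numbered 100 and became 391 with total tags, 35 with DESeq2, 50 with limma, 55 with at least 10 control tags, 28 with starts within 20 bp and 0 to 157 without single libraries. Those passing in IP tags numbered 50 and became 0 with total tags, 104 with DESeq2, 0 with limma, 26 with at least 10 control tags, 0 over all regions called in all 4 lists, 22 with starts within 20 bp and 4 to 727 without single libraries. With the replicate number as a block, 190 regions passed in IP tags, 99 in control tags and 0 in enrichment, and Aqp4 region 2 passed in IP tags at -1.31 (adjusted p = 0.0409, edgeR). The numbers share only a label, since deviations of same-numbered libraries correlated at 0.0262 in IP and 0.0526 in control tags. Of the regions with 1 peak in each list, none passed in enrichment, and 0 to 2 did without single libraries. With a fold of at least 8, 1 of the 5 shared regions was left, and with an overlap of 50 bp, 4. Without single libraries, the regions called only at 6 weeks numbered 0 to 6, and those called only at 2 weeks 0 to 4. With a library left out, a call in the lone remaining library of its age was enough for this count. The 6 and 3 at 6 weeks equal the single-list regions of 6-week replicates 2 and 1. The 4 at 2 weeks equals those of 2-week replicate 1. The enrichment change of Slc1a2 region 1 was 0.026 with total tags, 0.026 with limma and -0.46 to 0.31 without single libraries, the last including 0.10. Without single libraries, Sox9 ranged from -1.50 to 0.12 in control tags, -1.14 to 0.10 in IP tags and -0.0055 to 0.39 in enrichment, and Aqp4 region 1 from -0.085 to 0.28 in enrichment. Where a library was left out, the lone library of its age was taken to vary like the other age. The limma values differ from the main fit in both test and scaling, as they use levels scaled to total tags. Apart from the counts called only at 1 age, why these values moved was not tested. Lists record tags only at called peaks, and a few control tags limit Sox9 and Gfap.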
